A study of Mus musculus with 16 samples.

Results

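Respiratory complex I genes were followed in the left ventricle of the mouse. The set holds every protein-coding row of the deposited count table whose symbol starts with Ndufa, Ndufb, Ndufc, Ndufs or Ndufv followed by a digit, together with Ndufab1 and the assembly factors whose names start with Ndufaf. The rule found 46 of 53764 rows, on 17 chromosomes, and all 46 passed the filter on low counts. Of these, 36 encode subunits of complex I, 8 are Ndufaf assembly factors, and 2 carry the name without being complex I subunits. These are Ndufa4, whose protein is now placed in complex IV, and its paralog Ndufa4l2. Counts of subunits below leave both out. The count table held 0 rows annotated as encoded by mitochondrial DNA, so the core subunits encoded there could not be analysed. Shares of all counts below leave out those transcripts.

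Male C57BL/6J mice entered the study at 8 weeks of age and ate 1 of 4 diets during 4 months. A low fat chow served as control (CD), and the test chow, HFHS, was rich in fat as well as sucrose. Either was eaten freely, plain or with ertugliflozin, an inhibitor of the kidney glucose transporter SGLT2, at 0.5 mg per g of diet. The 4 groups are called CD untreated, CD ertugliflozin, HFHS untreated and HFHS ertugliflozin, and each has 4 libraries from ventricles that the submitters picked as representative of 12 available. P-values therefore measure the spread between those chosen samples.

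Complex I is the entry point of the respiratory chain for electrons from NADH. An L-shaped assembly in the inner mitochondrial membrane, it passes electrons along flavin and iron-sulfur clusters in its matrix arm to ubiquinone, and pumps protons through its membrane arm. The heart depends on it because most cardiac ATP comes from oxidative phosphorylation. Core subunits carry the cofactors and the pumps, supernumerary subunits surround and stabilise them, and assembly factors join the modules and leave the finished enzyme.

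Libraries held 14637669 to 21452212 counts and the common biological coefficient of variation was 0.0947 over 15841 genes tested. Myl2, Myl3, Tnnt2, Tnni3 and Pln are 5 of 10 listed ventricular cardiomyocyte markers. They averaged 7203, 4989, 8168, 4017 and 6909 CPM (counts scaled to a common library size and composition), so these 5 were present. The same 5 are the markers of that list that fell on HFHS below. Levels of the other listed markers are not given here. Markers of valve and cartilage (9 genes tested) and of atrial muscle (7 tested) were high in CD untreated. The mean of the valve markers' log2 CPM, centred on each gene's own mean, was 0.417 to 2.498 in that group, -1.708 to 0.879 in CD ertugliflozin, -1.678 to 0.145 in HFHS untreated and -1.563 to 0.901 in HFHS ertugliflozin. The atrial value was 0.476 to 3.546 in CD untreated, -1.463 to 1.162 in CD ertugliflozin, -1.449 to 0.712 in HFHS untreated and -1.493 to 0.086 in HFHS ertugliflozin.

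The 36 subunit genes took 1.25% ± 0.0356 (SD, n = 4) of all counts in CD untreated, 1.31% ± 0.0291 in CD ertugliflozin, 1.18% ± 0.0623 in HFHS untreated and 1.22% ± 0.0236 in HFHS ertugliflozin. Per kilobase of the main annotated transcript, which allows for transcript length, Ndufa4 was highest at 1287 CPM per kb. It was followed by Ndufb8, a subunit of the distal membrane arm, at 777 CPM per kb. Lowest were Ndufb4, a subunit of the distal membrane arm, at 11.9 CPM per kb, and Ndufaf6 and Ndufa4l2 at 16.0 each. The 8 assembly factors ranged from 16.0 (Ndufaf6) to 40.1 CPM per kb (Ndufaf1). Among subunits, Ndufb4, Ndufab1, Ndufb2 and Ndufs5 lay at or under 40.1, and all others at 95.4 or above. The transcript used was 4371 bases long for Ndufb2 and 3479 for Ndufab1, against a subunit median of 939.5. Their low values depend on that choice of transcript, and before division by length Ndufb2 averaged 137 CPM. Reads from other transcripts of a gene count toward this value, and reads assigned to gene copies do not.

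Several members share sequence with other annotated genes. Of the 46, 13 share over 10% of the 50-base windows of their main transcript with another annotated gene, and 24 share none. For Ndufb5, Ndufb6, Ndufb8 and Ndufb9 the other gene overlaps the member on the chromosome and is not a copy elsewhere. Ndufb6 shared 34.1% of its windows in this way with Smim27, which averaged 99.2 counts. Processed pseudogenes, which are reinserted copies of the messenger RNA, took more counts than the gene itself for 3 members. Ndufs5 averaged 486 counts per library and its pseudogene 1816, which is 78.9% of their sum. Ndufab1, the mitochondrial acyl carrier protein, averaged 1591 counts against 3459 in 2 pseudogenes (68.5%). Ndufa12 averaged 1888 counts against 2462 in its pseudogene Gm15920 (56.6%). Ndufs3 and Ndufb4 also divided with pseudogenes, which held 35% and 37.2% of their sums. How the authors' counting divided reads between such copies is not given in the sources used here, so the levels of these members are uncertain.

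RefSeq promoter windows (GRCm38.p6, 250 bases before to 50 after the start) existed for 40 members, of which 32 were subunits. Windows were searched on both strands for 4 motifs of factors known for nuclear genes of the respiratory chain. The YY1 motif AAGATGGCG stood in 5 of the 32 subunit windows (15.6%) against 1.64% of 27025 genes. The NRF1 motif GCGCATGCG stood in 2 (6.25%, against 1.95%), the ETS motif CCGGAAGT of GABP in 1 (3.12%, against 4.31%) and the estrogen-related receptor motif TCAAGGTCA in 0 (against 0.466%). No member held more than one of these motifs. The NRF1 motif overlaps its own reverse complement, so it was found on both strands at once in Ndufa11, Ndufaf4 and Ndufaf5. The YY1 matches are shown because they share place and strand: in all 6 members that held one, it lay on the coding strand and began 11 to 36 bases after the RefSeq start. The motif itself contains the letters ATG. Whether these are the start codons of the 6 proteins, which would also set place and strand, was not tested. For Ndufs7 that start lies 328 bases from the GENCODE gene start. Capitals mark the motif.
Ndufa9, chr6:126849097-126849125, minus strand: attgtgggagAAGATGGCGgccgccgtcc
Ndufc1, chr3:51408915-51408943, minus strand: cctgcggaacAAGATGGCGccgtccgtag
Ndufs4, chr13:114388045-114388069, minus strand: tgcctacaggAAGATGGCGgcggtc
Ndufs6, chr13:73328433-73328459, minus strand: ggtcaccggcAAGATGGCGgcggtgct
Ndufs7, chr10:80249463-80249491, plus strand: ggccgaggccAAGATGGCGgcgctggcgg
Ndufaf8, chr11:120098934-120098962, plus strand: ggcagggcccAAGATGGCGgcgccctcga

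The NRF1 motif lay before the start of Ndufa11, Ndufa8 and Ndufaf4 and just after that of Ndufaf5. Of these, only Ndufa11 passed the threshold on adjusted p for diet averaged over drug arms. That call was lost in 11 of 28 alternative analyses. Ndufaf5 had a larger fitted fall that did not pass. Whether the motif bears on the diet effect was not tested. The 200 bases before the Ndufa11 start are given (chr17:56717562-56717761, plus strand). Capitals mark 2 overlapping NRF1 matches, one on each strand.
Ndufa11 upstream: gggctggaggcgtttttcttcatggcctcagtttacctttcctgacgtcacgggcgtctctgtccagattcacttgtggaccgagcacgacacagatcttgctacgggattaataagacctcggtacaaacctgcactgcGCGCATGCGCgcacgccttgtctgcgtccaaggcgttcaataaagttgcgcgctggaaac
Ndufa8, chr2:36049329-36049357, minus strand: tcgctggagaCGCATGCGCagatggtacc
Ndufaf4, chr4:24897960-24897988, plus strand: ccagatgtctGCGCATGCGcctgtgcgga
Ndufaf5, chr2:140170652-140170680, plus strand: agtcccgttgGCGCATGCGcctaatagaa
These matches describe the letters only, and no binding was measured.

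The first question was whether the HFHS diet changed complex I transcripts. Averaged over both drug arms, 11 of 46 members fell and 0 rose at an adjusted p under 0.05 (8 subunits and 3 assembly factors). Over all genes tested, 11.6% passed in either direction and 5.01% fell. Fold changes were small, from -7.73% for Ndufs8 to -12.7% for Ndufb9. Of the 36 subunits 34 had a lower fitted level on HFHS, with a median log2 fold change of -0.092, while the median of all genes tested was -0.008 and 52.3% of them were lower. In bulk tissue, fewer cardiomyocytes and less RNA per cardiomyocyte cannot be told apart.

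**Figure D1:**
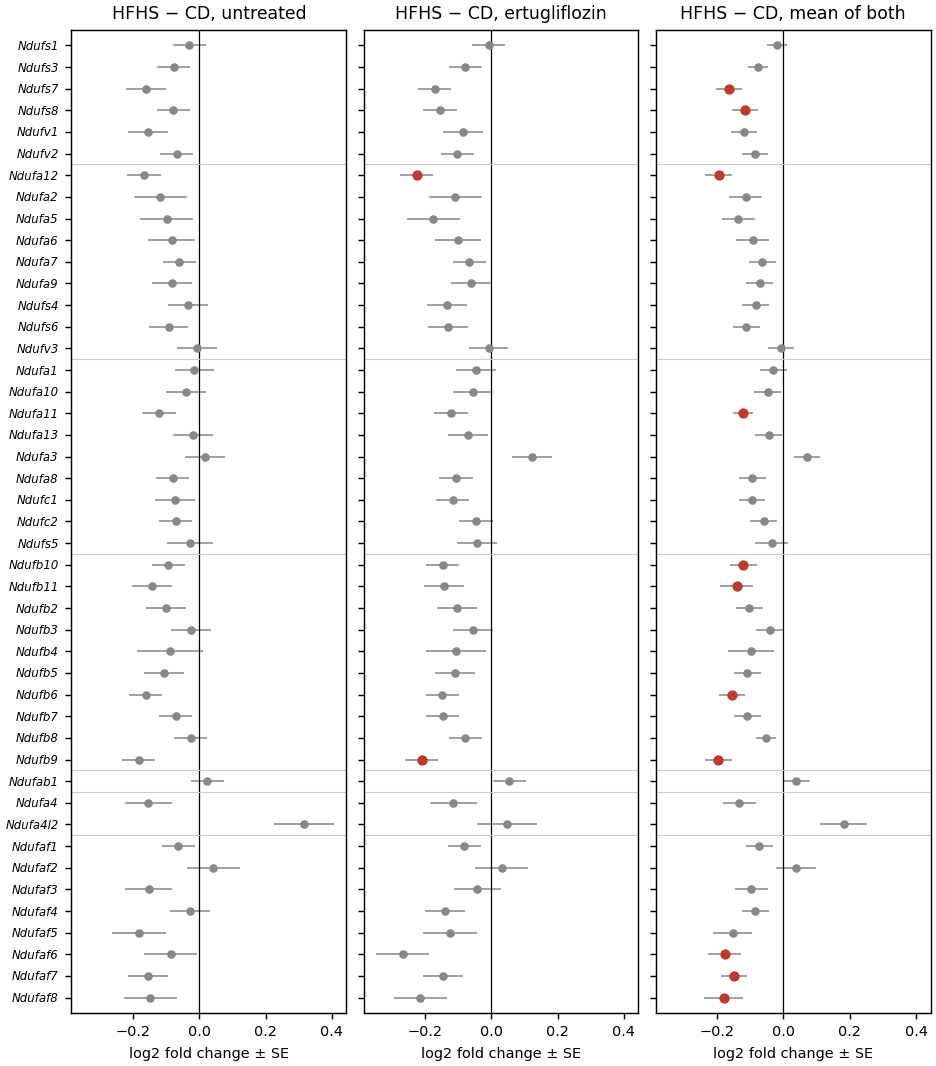
Log2 fold change of HFHS against CD (x axis, points with bars of 1 SE) for 45 of the 46 genes, in untreated mice, in ertugliflozin-fed mice and averaged. Red points passed an adjusted p of 0.05 (0, 2 and 11 genes), and horizontal lines divide, from the top, core matrix arm, other matrix arm, proximal membrane arm, distal membrane arm, Ndufab1, the Ndufa4 pair and Ndufaf genes.

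Ndufb9 had the smallest p. It encodes a distal membrane arm subunit of the LYR family that holds a copy of the acyl carrier protein, and lies at chr15:58933756-58939488 (GRCm38). Its CPM was 535, 504, 494 and 538 in CD untreated against 478, 426, 474 and 447 in HFHS untreated, and 546, 546, 530.3 and 577 in CD ertugliflozin against 468, 479, 458 and 497 in HFHS ertugliflozin. Groups did not overlap in either arm. The averaged log2 fold change was -0.20 ± 0.04 (SE, adjusted p = 0.00146). A separate gene model that overlaps Ndufb9, Gm49356, took 1.00 count per library on average.

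Ndufb6, a distal membrane arm subunit at chr4:40270591-40279421, had 172, 159.7, 164 and 165 CPM in CD untreated and 148, 145, 153 and 145 in HFHS untreated, again with no overlap. With ertugliflozin it had 163, 179.5, 169 and 183 on CD and 153, 160.0, 146 and 169 on HFHS, where 1 HFHS library reached into the CD range. Its averaged log2 fold change was -0.15 ± 0.04 (adjusted p = 0.00921). Of the 10 distal membrane arm subunits tested 4 fell, the others being Ndufb10 (-0.12 ± 0.04, adjusted p = 0.0333) and Ndufb11 (-0.14 ± 0.05, adjusted p = 0.0479), and all 10 had lower fitted levels (median -0.108).

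In the matrix arm, Ndufa12 had 109, 106, 105 and 115 CPM in CD untreated and 107, 93.4, 94.9 and 93.4 in HFHS untreated. The first HFHS library alone reached into the CD range. With ertugliflozin it had 121, 115, 112 and 120.5 CPM on CD against 96.0, 104, 96.1 and 105 on HFHS, without overlap. Ndufa12 is a supernumerary subunit added late in assembly, when it takes the place of its paralog, the assembly factor Ndufaf2. It lies at chr10:94198720-94221443 and fell by 12.6% (log2 fold change -0.20 ± 0.04, adjusted p = 0.00236). Its pseudogene Gm15920 fell too (-0.21, adjusted p = 0.00111), and the sum of gene and pseudogene gave -0.21 ± 0.04 (adjusted p = 0.00112). Ndufaf2 itself had 0.04 ± 0.06 (adjusted p = 0.722). Ndufa12 was the only one of 9 supernumerary matrix arm subunits past the threshold, and all 9 had lower fitted levels (median -0.092).

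Of the 7 nuclear core subunits 2 fell. Ndufs7 carries the last iron-sulfur cluster before ubiquinone and lies at chr10:80249121-80256794, with no shared windows. It had 332, 321, 309.8 and 359.7 CPM in CD untreated and 275, 291, 314 and 304 in HFHS untreated. With ertugliflozin the values were 343, 332, 338 and 363 on CD and 299.7, 321, 291 and 312 on HFHS. The untreated groups overlapped by 1 library a side and the ertugliflozin groups did not. Its averaged log2 fold change was -0.16 ± 0.04 (adjusted p = 0.0100). Ndufs8, a ferredoxin-like subunit of the same module, fell by 0.12 ± 0.04 on the log2 scale (adjusted p = 0.0449).

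The other core subunits did not pass. Ndufv1, which binds NADH and flavin, had -0.12 ± 0.04 (adjusted p = 0.0642), Ndufv2 -0.09 ± 0.04 (adjusted p = 0.161) and Ndufs3 -0.08 ± 0.03 (adjusted p = 0.151). Ndufs1, the largest core subunit and a carrier of iron-sulfur clusters, had -0.02 ± 0.03 (adjusted p = 0.778). All 7 core values were below 0, with a median of -0.085. Across the 36 subunits, level and diet effect were unrelated (Pearson r 0.00 across genes, which share libraries and are not independent). In the same description GC share and diet effect had a Pearson r of -0.29, and transcript length and diet effect 0.19.

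In the proximal membrane arm, 1 of 9 subunits fell. Ndufa11, which sits where the membrane arm meets its partners in supercomplexes, had -0.12 ± 0.03 (adjusted p = 0.0274). Its CPM was 207 to 223 in CD untreated against 191 to 205 in HFHS untreated, with no overlap, and 222 to 245 in CD ertugliflozin against 204 to 229 in HFHS ertugliflozin, which overlapped. Ndufa3 was the highest value among the subunits (0.07 ± 0.04, adjusted p = 0.303), and Ndufab1 the only other one above 0 (0.04 ± 0.04, adjusted p = 0.544).

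Among the 8 assembly factors 3 fell. Ndufaf7, a mitochondrial methyltransferase, had 36, 34.1, 36 and 35.9 CPM in CD untreated and 30.3, 31.5, 35 and 30.7 in HFHS untreated (averaged log2 fold change -0.15 ± 0.04, adjusted p = 0.0213). Its ertugliflozin groups, 34.4 to 39.2 on CD and 31.7 to 34.3 on HFHS, did not overlap. Ndufaf6, a factor of the early matrix arm intermediates, had -0.18 ± 0.05 (adjusted p = 0.0391). Ndufaf8, the partner of the Ndufs7-modifying enzyme Ndufaf5, had -0.18 ± 0.06 (adjusted p = 0.0421). Ndufaf5 itself had -0.15 ± 0.06 (adjusted p = 0.0805), with 24.8 to 27.9 CPM in CD untreated and 21.8 to 24.8 in HFHS untreated, groups that touched after rounding without overlapping. With ertugliflozin it had 22.7 to 28.4 CPM on CD and 21.4 to 25.0 on HFHS, which overlapped. The other 4 factors, Ndufaf1, Ndufaf2, Ndufaf3 and Ndufaf4, lay between -0.10 and 0.04 and did not pass.

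**Figure D2:**
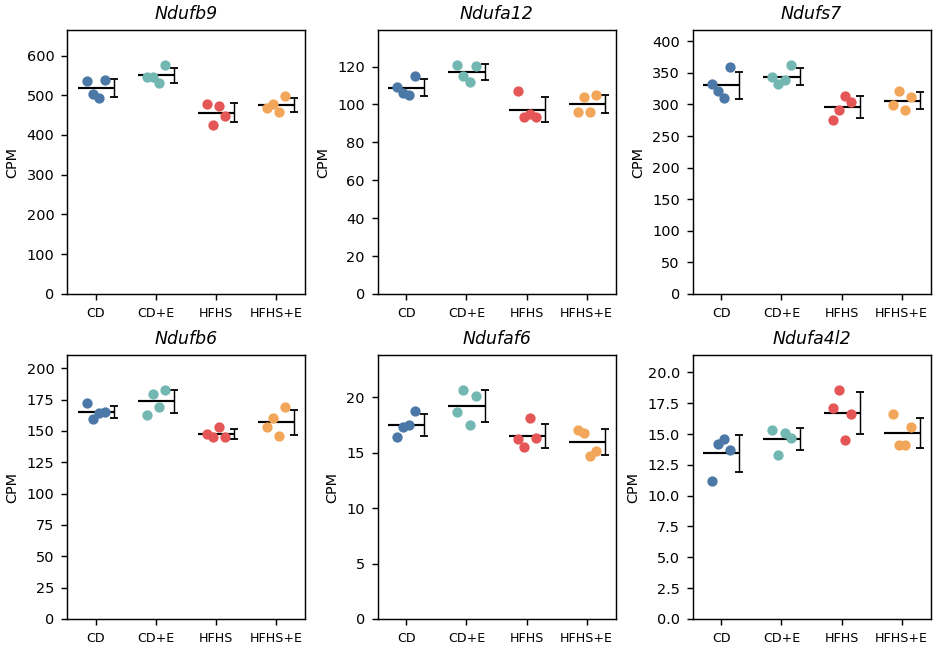
CPM of 6 members in each library (points), with group means (lines) and SD (bars, n = 4), for CD, CD with ertugliflozin (CD+E), HFHS and HFHS with ertugliflozin (HFHS+E). Ndufb9 separates the diets in both drug arms (494 to 538 against 426 to 478 CPM untreated), while Ndufa4l2 runs the other way at 11.2 to 18.6 CPM.

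Each arm was also tested alone. Without drug, 0 of 46 members passed in edgeR, 12 had an unadjusted p under 0.05, and DESeq2 called 1 (Ndufb9) and limma-voom 2 (Ndufb9 and Ndufa12). Over all genes 2.06% passed in edgeR, 0.619% as falls, and 16.5% had an unadjusted p under 0.05. The matching shares of all genes in DESeq2 and limma-voom are not given here. Ndufb9 came nearest (-0.18 ± 0.05, adjusted p = 0.0641), then Ndufa4l2 (0.32 ± 0.09, adjusted p = 0.0878) and Ndufb6 (-0.16 ± 0.05, adjusted p = 0.106). With ertugliflozin in both groups, 2 members fell: Ndufa12 (-0.22 ± 0.05, adjusted p = 0.0221) and Ndufb9 (-0.21 ± 0.05, adjusted p = 0.0237). There 3.69% of all genes passed, 1.53% as falls. Ndufaf6 followed with -0.27 ± 0.08 (adjusted p = 0.0560).

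Separation of the groups was counted next. Without drug, 4 members had every HFHS library below every CD library (Ndufa11, Ndufb6, Ndufb9 and Ndufaf5), against 4.22% of all genes, and 0 had every one above. With drug there were 11 (Ndufa12, Ndufb7, Ndufb9, Ndufb10, Ndufs4, Ndufs6, Ndufs7, Ndufs8, Ndufaf6, Ndufaf7 and Ndufaf8), against 6.38%. The 2 diet contrasts share no library. In both of them 34 of 36 subunits had a lower fitted level on HFHS, while 35.3% of all genes did. The subunit medians were -0.078 without and -0.103 with drug, against -0.002 and -0.005 for all genes.

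Subunit transcripts also differed together between animals of one group. The mean centred log2 CPM of the 36 subunits was 0.046, -0.030, -0.068 and 0.061 in CD untreated, 0.038, 0.095, 0.043 and 0.152 in CD ertugliflozin, 0.014, -0.141, -0.048 and -0.125 in HFHS untreated and -0.051, -0.010, -0.032 and 0.057 in HFHS ertugliflozin. Its SD within groups was 0.059. In CD ertugliflozin replicate 4 all 36 subunits lay above their own mean over the 16 libraries, and in HFHS untreated replicates 2 and 4 none did. HFHS untreated replicates 1 and 3, with 22 and 10 of 36 above, lay inside the CD untreated range, and HFHS ertugliflozin replicate 4, with 29, inside that of CD ertugliflozin. The other HFHS libraries lay below every CD library of their drug arm.

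**Figure D3:**
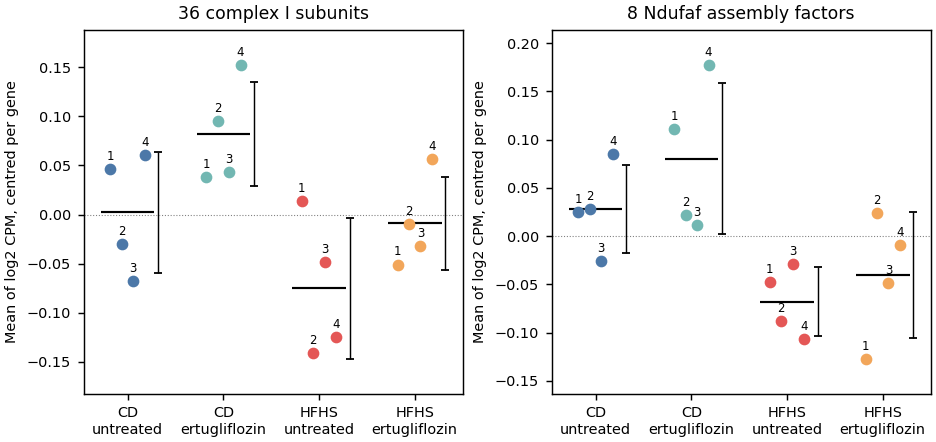
Mean over genes of log2 CPM centred on each gene's mean over 16 libraries (y axis, log2 units), for 36 subunits and for 8 Ndufaf factors; points are libraries with their replicate number, lines are group means and bars SD (n = 4). Subunit values run from -0.141 in HFHS untreated to 0.152 in CD ertugliflozin, and all groups overlap a neighbour.

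HFHS untreated replicate 1 was uneven within the complex. Its supernumerary matrix arm genes stood high (mean 0.095, 8 of 9 above their own mean) while its core matrix arm genes stood low (-0.080, 2 of 7 above). In the other 3 libraries of that group both lists were below 0. Of the 16 libraries it also had the highest centred means of endothelial markers (0.341, 10 of 10 above their own mean, others -0.163 to 0.147), erythroid markers (0.660, others -0.549 to 0.416) and cytosolic ribosomal proteins (0.160, others -0.141 to 0.137). Its ventricular cardiomyocyte markers were second lowest (-0.131). The part of these differences in its complex I values was not tested. Leaving this library out raised the count of members that fell, averaged over arms, from 11 to 21, and in untreated mice from 0 to 5 (Ndufa12, Ndufa2, Ndufa4, Ndufa5 and Ndufb9). Leaving out any 1 of 10 other libraries lowered the averaged count to between 5 and 7: CD untreated 1 or 4, CD ertugliflozin 2 or 4, HFHS untreated 2 or 4, or any HFHS ertugliflozin library. How many of all genes passed in these fits is not given here.

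**Figure D4:**
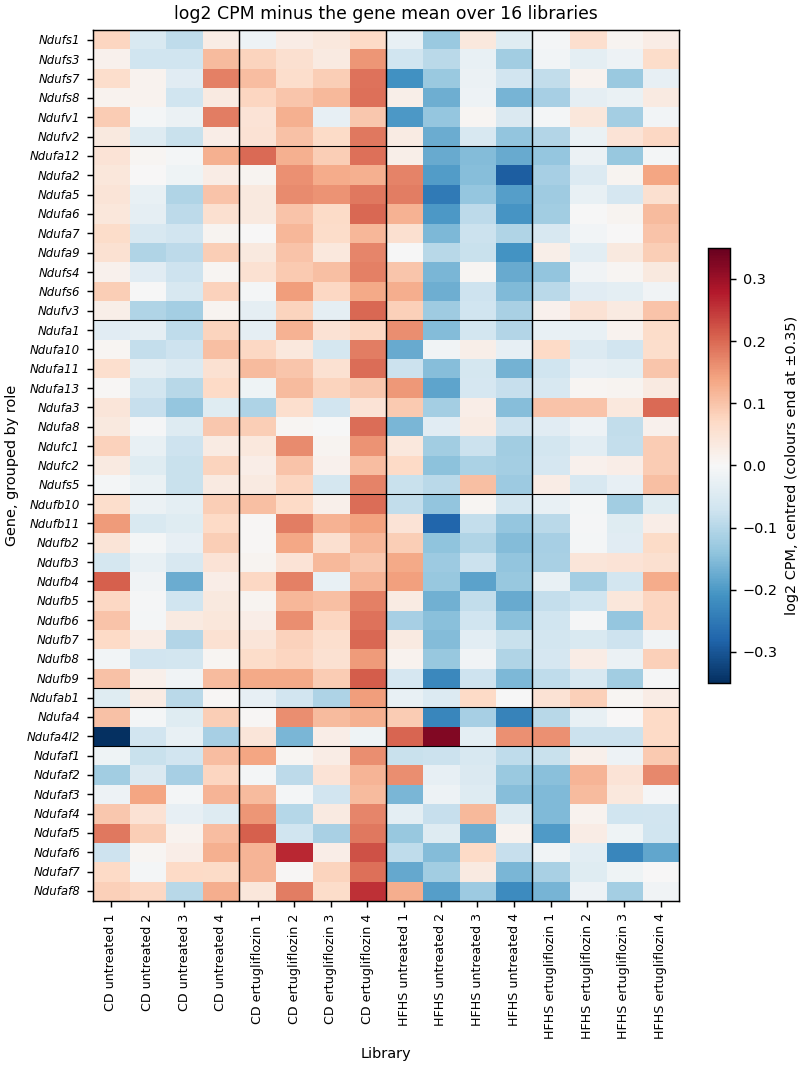
Log2 CPM minus each gene's mean over the 16 libraries (colour, ending at 0.35 either way) for 45 genes in rows, by role, and libraries in columns, by group. Columns such as CD ertugliflozin 4 and HFHS untreated 2 have nearly one colour across the subunits, and HFHS untreated 1 is mixed.

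After subtracting group means, pairs of subunits had a median correlation of 0.65 over the 16 libraries (630 pairs), pairs of assembly factors 0.29 (28 pairs) and subunits with assembly factors 0.28 (288 pairs). These are descriptions of genes that share libraries. Ndufb8 and Ndufv3 followed the mean of the other subunits most closely (r 0.93 each), then Ndufb9 and Ndufa6 (0.92 each). Ndufa10, a subunit of the nucleoside kinase family, followed it least among subunits (0.22), with Ndufv1 (0.30) and Ndufs7 (0.31) next. Of the assembly factors Ndufaf8 tracked the subunits (0.90) and Ndufaf3 and Ndufaf5 did not (0.09 each).

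Ndufb9, Ndufa12 and Ndufs7 kept an averaged fall past the threshold in all 28 alternative analyses. Ndufb6 lost it in 2, under a correction of each library for exon length and GC share and with valve and atrial marker scores as covariates. The others lost it more often: Ndufaf7 in 4, Ndufa11 and Ndufb10 in 11 each, Ndufaf6 in 13, and Ndufs8, Ndufb11 and Ndufaf8 in 16 each. With drug in both groups, the calls of Ndufa12 and Ndufb9 were lost in 4 and 6 of 29 alternatives. The length and GC correction also moved the subunit median from -0.092 to -0.048. Under it 5 members passed: Ndufa12, Ndufb7, Ndufb9 and Ndufs7 fell and Ndufa3 rose (0.12, adjusted p = 0.0492). Subunit genes are short, with a median exon length of 1643.5 bases against 4024 for all genes tested. With the marker scores as covariates the median was -0.103 and 5 members passed (Ndufa12, Ndufb9, Ndufb10, Ndufs7 and Ndufaf6). Counts over all genes under these settings are not given here.

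Markers of heart muscle moved with the diet as well. Of 10 ventricular cardiomyocyte markers 5 fell averaged over arms and 0 rose (median -0.118): Myl2 (-0.21, adjusted p = 0.00312), Myl3 (-0.19, adjusted p = 0.00142), Pln (-0.16), Tnni3 (-0.21) and Tnnt2 (-0.19), which encode myosin light chains, phospholamban and troponins. Of the 10, 7 had a lower fitted level on HFHS and 3 a higher one, up to 0.11. The list's centred mean ranged from -0.042 to 0.076 in CD untreated, 0.003 to 0.147 in CD ertugliflozin, -0.136 to 0.076 in HFHS untreated and -0.079 to -0.017 in HFHS ertugliflozin. Of 10 endothelial markers Kdr (0.34) and Cdh5 (0.28) rose, and of 10 fibroblast markers Pdgfra (0.30) and Ddr2 (0.20). Of 10 macrophage markers Lyz2 fell (-0.37). None of 9 valve and cartilage, 7 atrial, 3 adipocyte, 6 erythroid, 3 skeletal muscle and 6 smooth muscle markers passed, with medians of -1.205, -1.613, -1.881, -0.099, -0.221 and -0.066. The part of such differences in the complex I values was not tested.

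The second question was whether ertugliflozin changed these genes. On CD, 0 of 46 members passed in edgeR, DESeq2 or limma-voom, and 5 had an unadjusted p under 0.05. Over all genes 0.0189% passed and 6.17% had an unadjusted p under 0.05. Fitted levels of 35 of 36 subunits were higher with drug, with a median log2 fold change of 0.081 (all genes 0.004). Ndufb8, a distal membrane arm subunit, had 524, 504, 505 and 530.0 CPM untreated and 552, 556, 548 and 585 with drug, without overlap (0.12 ± 0.05, adjusted p = 0.762). Ndufs4, Ndufs8 and Ndufv2 did not overlap either, with 0.13 ± 0.06, 0.12 ± 0.05 and 0.12 ± 0.05. These 4 compare with 1.78% of all genes whose groups were fully higher.

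On HFHS, 0 of 46 members and 0% of all genes passed, and DESeq2 and limma-voom called 0 members. An unadjusted p under 0.05 was found for 3 members and for 4.02% of all genes. Fitted levels of 36 of 36 subunits were higher with drug (median 0.059, all genes 0.001), while in 0 were the groups fully separate, against 1.31% of all genes. The smallest p belonged to Ndufa3 (0.15 ± 0.06, adjusted p = 1.000), at 239 to 282 CPM untreated and 272 to 304 with drug, then Ndufa11 (0.11 ± 0.05) and Ndufa9 (0.12 ± 0.06), which flanks the ubiquinone site. The drug contrasts on the 2 diets share no library, and 35 of 36 subunits were higher with drug in both, while 27.7% of all genes were. The subunits share libraries and are not independent. The shift was not particular to complex I. Of 23 genes of complexes III and IV, 21 were higher with drug on CD (median 0.077) and 22 on HFHS (median 0.051). Of 15 ATP synthase genes, 13 were higher on CD (median 0.079) and 14 on HFHS (median 0.063).

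Cell type markers were also read in the drug contrasts, and none of those tested passed the threshold there. On HFHS, fitted levels with drug were lower for 6 of 6 erythroid markers (median -0.412, 5 at an unadjusted p under 0.05), 10 of 10 macrophage markers (median -0.199) and 10 of 10 endothelial markers (median -0.114). They were higher for 9 of 9 valve and cartilage markers (median 0.898). On CD, they were lower for 9 of 9 valve and cartilage (median -2.119), 7 of 7 atrial (median -2.167), 6 of 6 smooth muscle (median -0.162) and 9 of 10 fibroblast markers (median -0.180). The lists that were lower with drug on HFHS were mostly higher on CD. Fitted levels there were higher for 9 of 10 endothelial (median 0.059), 8 of 10 macrophage (median 0.095) and 5 of 6 erythroid markers (median 0.092). Ventricular cardiomyocyte markers had medians of 0.053 on CD and 0.008 on HFHS. The part of these differences in the subunit values was not tested.

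**Figure D5:**
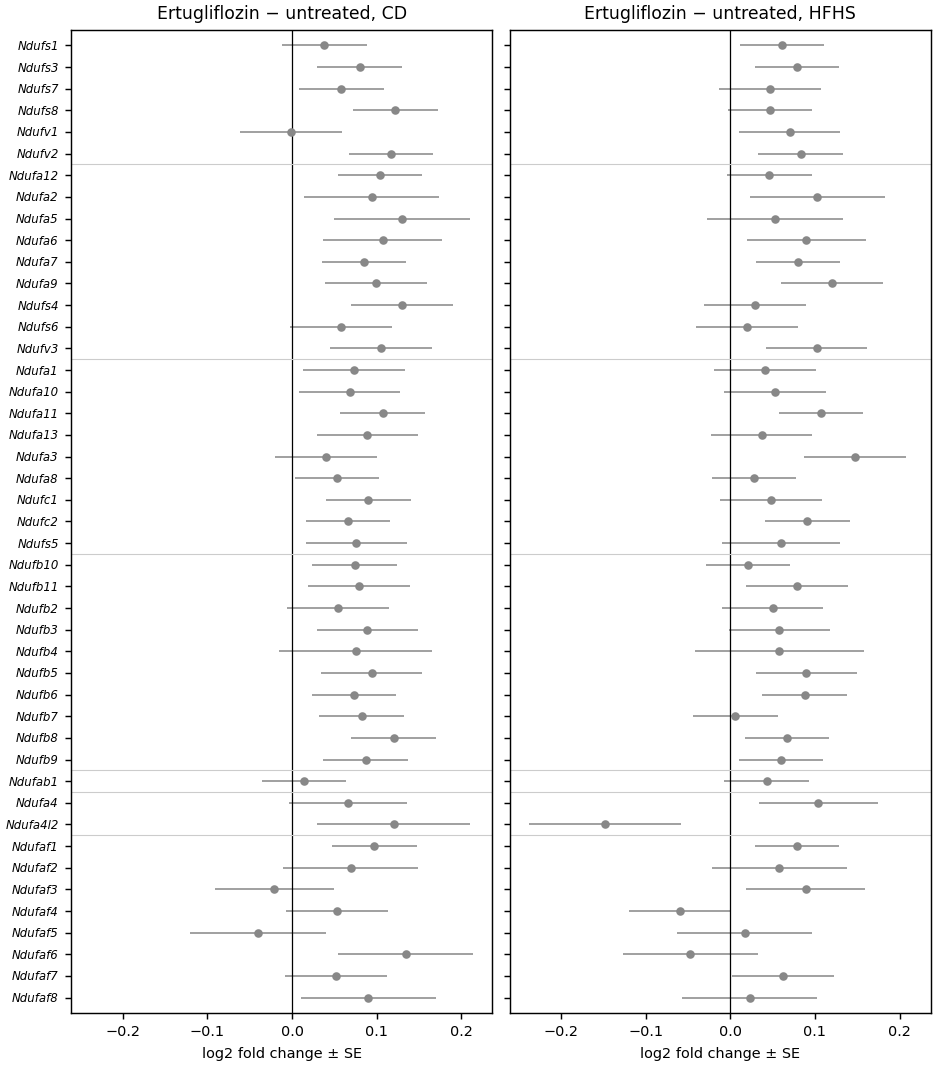
Log2 fold change of ertugliflozin against untreated (x axis, points with bars of 1 SE) for 45 of the 46 genes on CD and on HFHS, grouped by role from the top as in the plot of diet effects. Nearly all subunit points lie right of 0 (medians 0.081 and 0.059) and none passed an adjusted p of 0.05.

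Averaged over diets, 0 members and 0% of all genes passed, with 0 members called by DESeq2 or limma-voom. An unadjusted p under 0.05 was found for 12 members and for 5.57% of all genes. Ndufa11 had the smallest p (0.11 ± 0.03, adjusted p = 0.863), then Ndufb8 (0.09 ± 0.03) and Ndufa9 (0.11 ± 0.04). The subunit median was 0.075 (all genes -0.000). The drug contrast on CD uses the same CD libraries as the diet contrasts, and that on HFHS the same HFHS libraries. Leaving out CD untreated replicates 2 and 3, the libraries with the highest valve markers, gave a drug median of 0.033 on CD and a diet median of -0.127 without drug.

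A difference of the drug effect between diets was not called for any member (0 of 46 in edgeR, DESeq2 and limma-voom, 0 at an unadjusted p under 0.05, against 0.0189% of all genes past the threshold and 4.27% at the unadjusted p). The subunit median of that difference was -0.016 and changed sign with the processing. Ndufa4l2 had the smallest p (-0.27 ± 0.13, adjusted p = 1.000), then Ndufaf6 (-0.18 ± 0.11) and Ndufaf4 (-0.11 ± 0.09).

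Ndufa4 and Ndufa4l2 had diet differences of opposite sign. Ndufa4 had 841, 779, 759.8 and 831 CPM in CD untreated and 832, 668, 722 and 666 in HFHS untreated, with the first HFHS library inside the CD range (averaged -0.13 ± 0.05, adjusted p = 0.0680). Ndufa4l2, a hypoxia-responsive paralog, had 11.2, 14.2, 14.6 and 13.7 CPM against 17.1, 18.6, 14.5 and 16.6, with 1 HFHS library inside the CD range (averaged 0.18 ± 0.07, adjusted p = 0.0816). In ertugliflozin-fed mice its groups overlapped, at 13.3 to 15.3 CPM on CD and 14.1 to 16.6 on HFHS. Within groups it ran against the subunit mean (r -0.41). Neither gene passed the threshold.

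A row named Ndufb1-ps is annotated as non-coding and so lay outside the rule. It averaged 123 CPM, and its averaged diet effect was -0.06 ± 0.04 (adjusted p = 0.461).

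Other genes of the pathway were read from lists beside the members. Of 12 further complex I assembly genes tested, 2 fell averaged over arms (Tmem126a, -0.14 ± 0.03, and Tmem70, -0.11 ± 0.04, both factors of membrane arm assembly) and 0 rose, with a median of -0.083. Of 23 genes of complexes III and IV 8 fell (median -0.111), led by Cox6b1 (-0.17 ± 0.04) and Cox5a (-0.16 ± 0.03). Of 15 ATP synthase genes 5 fell (median -0.084), led by Atp5g1 (-0.20 ± 0.04), which encodes the rotor ring. Of 8 complex II genes Sdhb and its assembly factor Sdhaf4 fell (-0.12 and -0.20). The complex I subunits had 8 of 36 and a median of -0.092. Cytosolic ribosomal proteins, whose transcripts are short and abundant too, had 4 of 42 fall and a median of -0.077.

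Routes that bring electrons to ubiquinone without complex I behaved individually. Etfdh, which passes electrons from fatty acid oxidation to ubiquinone, rose on HFHS (0.29 ± 0.03 averaged, adjusted p = 2.94e-05; 0.29 in either arm). Prodh, the proline dehydrogenase, fell (-0.62 ± 0.09, adjusted p = 0.000456). The malate-aspartate shuttle supplies cytosolic NADH to complex I, and of its 7 genes Slc25a13 (-0.23 ± 0.05) and Got1 (-0.21 ± 0.06) fell. Of 13 ubiquinone synthesis genes Coq10a (-0.23 ± 0.04) and Pdss1 (-0.26 ± 0.06) fell. Of 14 iron-sulfur cluster genes Iba57 alone passed, and it rose (0.36 ± 0.05, adjusted p = 0.000130).

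Among supercomplex and matrix proteins, Higd1a fell (-0.16 ± 0.04), the chaperonin Hspe1 fell (-0.23 ± 0.04) and the protease subunit Clpx rose (0.15 ± 0.04). Of 15 transcription factors and coactivators of mitochondrial genes only Ppargc1b passed, with a rise of 0.32 ± 0.09 (adjusted p = 0.0219). Its relative Ppargc1a had -0.19 ± 0.07 (adjusted p = 0.0921). Of the factors whose motifs were searched, Yy1 (0.04 ± 0.04), Nrf1 (-0.03 ± 0.05), Gabpa (0.06 ± 0.03) and Esrra (-0.04 ± 0.04) did not pass.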

How the data were processed

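Left ventricular poly(A) RNA of 16 mice was sequenced in strand-marked libraries, per the labels' protocols. The authors deposited raw read counts for 53764 Ensembl genes, and regularized log2 values that served only as an alternative input. FastQC 0.11.7, the aligner STAR 2.6.0c, featureCounts from Subread 1.6.2, DESeq2 1.22.1 and the build mm10 are named, without order, per the submitters' processing notes. Their annotation, strand setting and treatment of multiply matching reads were not given in the sources used here. Symbols and coordinates are from GENCODE M21 (GRCm38), which matched 53669 IDs.

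The count model was edgeR 4.0.16 (R 4.3.3). It used filterByExpr, TMM factors, group means fitted over all 16 libraries at once, quasi-likelihood tests with robust dispersion, and Benjamini-Hochberg adjustment over 15841 genes at 0.05. The SE is the log2 fold change divided by the root of F. Scores are means of log2 CPM (prior count 2) centred per gene. No pair of libraries in a group agreed within sampling noise (chi-square over its degrees of freedom 3.19 to 15.8), and each was kept as its own replicate. The scripts were tested on simulated counts of independent genes, with planted changes larger than those of the called members. That test does not cover effects as small as theirs.

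Members and lists were chosen with earlier results of these data known. Named were members past the threshold, the 3 of smallest p per contrast, core subunits, the highest and lowest levels, the assembly factors, Ndufa4 and Ndufa4l2, and up to 4 called genes per further list. One member enters the counts and medians but is not reported here by itself. Other members are named where groups did not overlap or other annotated genes share sequence.

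Alternatives were RLE and upper-quartile factors, no filter and 1 CPM in 4 libraries, DESeq2 1.42.0, limma-voom and limma on the deposited log2 values (limma 3.58.1), the replicate number as a block, a lowess correction for length and GC (span 0.3), marker covariates, the compared groups alone and libraries left out. Adding pseudogene counts to their member was chosen after seeing the data.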

Additional observations from a re-analysis of the deposited data

Results flagged for a closer look

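The 46 members and 2 mean scores, of the subunits and of the Ndufaf factors, gave 192 sets of 4 libraries over the 4 groups. In 5 of them, all of single members, 1 library stood apart from the other 3 by Dixon's criterion, where chance gives about 9.60. Ndufa12 reached 107 CPM in HFHS untreated replicate 1, with the others at 93.4 to 94.9. In the same library Ndufb4 reached 12.7 CPM (others 10.1 to 10.5) and Ndufc2 188 CPM (others 162 to 166). Ndufb3 was low in HFHS ertugliflozin replicate 1, at 193 CPM against 215 to 217. Ndufaf7 was low in CD untreated replicate 2, at 34.1 CPM against 35.9 to 36.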

How the results depend on the processing

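Counts of members past the threshold in the diet contrasts depended on the processing, and so did the subunit medians. For diet averaged over arms the count was 11, and 5 with no filter, 17 with limma-voom, 5 under the length and GC correction, 5 with marker covariates and 5 to 21 when 1 library was left out. For diet with drug it was 2, and 6 with DESeq2 and 0 to 3 with 1 library left out. For diet without drug it was 0, and 1 with DESeq2, 2 with limma-voom and 0 to 5 with 1 library left out. With the replicate block 7 members passed averaged over arms, 2 with drug and 0 without. Replicate numbers did not pair the samples: residual correlations of same-numbered libraries were -0.24 to 0.31 (median 0.06) and of others -0.26 to 0.27 (median -0.02). Adding pseudogene counts to their member left 10 calls averaged over arms. The matching counts over all genes are not given here. Whether these changes follow changes in the number of calls over all genes was not tested. The subunit median moved by less than 0.059, the SD of the subunit mean between libraries of a group, in each alternative run. That limit is wide beside the medians themselves, such as 0.059 for drug on HFHS and -0.078 for diet without drug. It therefore does not show that the medians were stable. Only the interaction median changed sign, to 0.003 with limma-voom, 0.035 with marker covariates, 0.037 without CD untreated replicates 2 and 3, and at most 0.019 with 1 library left out. No drug or interaction call appeared in any alternative. A fit of only the groups compared was not run for averaged effects. The causes were not tested.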
